A study of Mus musculus with 7 samples.

Results

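The miR-29 family of microRNAs (miRNAs) was followed through 7 small RNA libraries of mouse hippocampus. Its members were taken by name, as every product of mmu-miR-29a, mmu-miR-29b and mmu-miR-29c that the deposited comparison tables list (written below without the species prefix). This gave 7 products of 756 mature miRNA sequences with a read, namely the 3 guide strands and 4 opposite (*) arms, at 8 of 806 mature loci. Mice were adult C57BL/6 animals of 3 to 5 months. NIPP1* mice carry a fragment of a nuclear inhibitor of protein phosphatase 1 (PP1) under a tetO promoter, with a transactivator driven by the CaMKIIalpha promoter, so that PP1 is inhibited in forebrain neurons when doxycycline is fed. Control mice were wildtype by the labels and littermates by the methods, and whether they received doxycycline is not given in the sources used here. Trained mice had taken part in an object recognition task and non-trained mice had only been placed in the chamber.

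The labels give 1 library of non-trained controls (library 1) and 1 of non-trained NIPP1* mice (library 2). Trained controls have 3 libraries (3, 4 and 5) and trained NIPP1* mice have 2 (6 and 7). Hippocampi of several mice were pooled, and nothing in the labels says how mice were divided among the libraries of a group, so p-values measure only the spread between these libraries. Depth lay between 7285261 and 10017730 miRNA reads per library, and 1 read was worth between 0.0998 and 0.137 reads per 1000000 miRNA reads (RPM). The deposited table of the trained groups goes against the labels. When its trained control means were rebuilt from reads for 318 miRNAs averaging 100 reads or more, libraries 6 and 7 came within 0.0188% (root mean square), and the 3 libraries that carry this label within 18.3%. Its trained NIPP1* means were met within 0.0261% by libraries 3, 4 and 5 and within 18.8% by the 2 libraries that carry that label. Which assignment is right cannot be told from these data. Groups below follow the labels, and every difference between the trained genotypes has the opposite sign under the grouping of the table. The training effect within each genotype also rests on this assignment.

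miRNAs guide the Argonaute protein to messenger RNAs, mainly by pairing of the seed, bases 2 to 8 from the 5′ end, and lower the output of those messengers. Each hairpin precursor yields a guide strand, which is kept, and an opposite arm, which is mostly degraded. The miR-29 family is known for repressing DNA methyltransferases, among them Dnmt3a, and collagens and other matrix proteins. In the brain it rises as neurons mature, is enriched in astrocytes, and restrains pro-apoptotic BH3-only genes in neurons.

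The 3 guides are shown first because they share 1 seed and differ from each other by few bases, which decides how far their reads can be told apart. Sequences are from RefSeq (GRCm38.p6), written from the 5′ end with the seed in capitals, and all 7 products matched an entry.
miR-29a: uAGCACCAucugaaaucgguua
miR-29b: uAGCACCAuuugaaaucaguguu
miR-29c: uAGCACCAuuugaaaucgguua

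Positions are counted from 1 at the 5′ end. From miR-29a to miR-29c the sequence changed by C10U alone, an identity of 95.5% over 22 bases. From miR-29a to miR-29b it changed by C10U, G18A, U21G and A22U, and from miR-29c to miR-29b by G18A, U21G and A22U. miR-29b is also 1 base longer, at 23 nt against 22 nt. The mismatches allowed in mapping are not given in the sources used here, so the split of reads between miR-29a and miR-29c is less certain than that of miR-29b. Of the 756 measured sequences, 3 (0.397%) carried AGCACCA at bases 2 to 8, and these were the 3 guides. miR-29b alone of the guides ends in AGUGUU, letters known as an element that takes miR-29b to the nucleus in cultured cells. In capitals within miR-29b this reads as follows, and 2 of the 756 sequences (0.265%) ended in these letters, miR-29b and miR-92b*.
miR-29b, end element: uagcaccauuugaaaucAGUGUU

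The * arms are printed because they tell all 4 hairpins apart, while the miR-29b guide is shared by both Mir29b hairpins. None of them carries the seed of the guides, and the 4 seeds differ from each other.
miR-29a*: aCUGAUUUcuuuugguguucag
miR-29b-1*: gCUGGUUUcauauggugguuua
miR-29b-2*: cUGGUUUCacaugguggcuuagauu
miR-29c*: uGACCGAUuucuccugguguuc

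The family comes from 4 hairpins in 2 pairs (coordinates of NCBI37/mm9, the build of the deposited files). On the minus strand of chromosome 6, the Mir29a hairpin spans chr6:31012660-31012747 and the Mir29b-1 hairpin chr6:31013017-31013097, with 269 bp between them. The GENCODE vM1 annotation has no other gene over either hairpin. On the plus strand of chromosome 1, the Mir29b-2 hairpin spans chr1:196863234-196863314 and the Mir29c hairpin chr1:196863741-196863828, with 426 bp between them. Both lie within an exon, chr1:196860017-196864102, of the long noncoding RNA A330023F24Rik on the same strand. The mature miR-29b sequence is the same at both of its loci, and each locus carried all of its reads in the deposited values. Guide reads therefore cannot be assigned to Mir29b-1 or Mir29b-2, while miR-29b-1* and miR-29b-2* can.

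The family made up a large share of the hippocampal miRNA pool. miR-29a was the second most abundant of all miRNAs, between miR-9 at a mean of 128329 RPM and miR-125b-5p at 93854 RPM. It stood at 113100 RPM in the non-trained control and 120800 RPM in the non-trained NIPP1* library, at 113100, 108200 and 103200 RPM in the trained control libraries and at 109600 and 115600 RPM in the trained NIPP1* libraries. Its highest value was 1.17 times its lowest, against 1.39 times for miR-9 and 1.31 times for miR-125b-5p. Other abundant miRNAs had ratios as low or lower, among them miR-26a (1.17), miR-9* (1.15) and let-7i (1.07).

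miR-29c, which differs from miR-29a by a single base, ranked 9 by mean level. It stood at 27660 and 26240 RPM in the non-trained control and NIPP1* libraries, at 25750, 22340 and 22260 RPM in the trained controls and at 25140 and 26820 RPM in the trained NIPP1* libraries. The trained groups overlapped, and libraries 4 and 5 were the lowest. miR-29b, the guide of both Mir29b hairpins, ranked 17. It stood at 12355 and 10995 RPM in the non-trained control and NIPP1* libraries, at 12420, 12435 and 10470 RPM in the trained controls and at 13715 and 14095 RPM in the trained NIPP1* libraries. Both libraries labelled trained NIPP1* were above the other 5.

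The guides together took 15.3% of miRNA reads in library 1, the non-trained control, and 15.8% in library 2, its NIPP1* counterpart. Their share was 14.3% ± 0.768 (SD, n = 3) in the trained controls and 15.2% ± 0.570 (SD, n = 2) in the trained NIPP1* libraries. The log2 ratio of the group means was 0.089 between the trained genotypes, and 0.046 between the non-trained libraries, NIPP1* over control in both. Trained over non-trained, it was -0.095 in controls and -0.052 in NIPP1* mice. Under the grouping of the deposited table these were -0.0059 and -0.14, and the trained genotypes differed by -0.089. These values moved with the scaling and with single libraries. With TMM factors and DESeq2 size factors the trained genotypes differed by 0.015 and 0.037, training in controls gave -0.0046 and -0.0061, and training in NIPP1* mice gave -0.030 and -0.011. Leaving out 1 library gave 0.050 to 0.13 between the trained genotypes, -0.13 to -0.058 for training in controls and -0.090 to -0.014 for training in NIPP1* mice. A share of a fixed total cannot tell fewer miR-29 molecules from more of other miRNAs, and in bulk tissue fewer cells of a type cannot be told from less RNA per cell.

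The * arms were rare beside their guides, and together made up between 0.627% and 0.726% of the family's reads. miR-29a* was the most abundant of them. It stood at 875 and 817 RPM in the non-trained control and NIPP1* libraries, at 792, 697 and 698 RPM in the trained controls and at 783 and 791 RPM in the trained NIPP1* libraries. All 5 trained libraries were below both non-trained ones, as were those of 8.19% of the 476 tested miRNAs. There were between 129 and 155 reads of miR-29a for each read of miR-29a*. miR-29c* stood between 55.2 and 65.5 RPM in the 7 libraries, highest in the non-trained NIPP1* library. The trained groups overlapped, and there were 393 to 478 reads of miR-29c for each of miR-29c*.

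The * arms of the Mir29b hairpins varied most. miR-29b-1*, the arm of the chromosome 6 hairpin, stood at 37.7 and 47.9 RPM in the non-trained control and NIPP1* libraries, at 42.6, 66.5 and 77.9 RPM in the trained controls and at 40.6 and 36.0 RPM in the trained NIPP1* libraries. The 3 trained control libraries were above the 2 trained NIPP1* libraries, and libraries 4 and 5 were above all others. miR-29b-2*, the arm of the chromosome 1 hairpin, stood at 112.5 and 124.9 RPM in the non-trained control and NIPP1* libraries, at 100.6, 155.5 and 162.4 RPM in the trained controls and at 112.6 and 104.8 RPM in the trained NIPP1* libraries. Libraries 4 and 5 were again the highest, and the trained groups overlapped.

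Ordered by mean level, the family ran from miR-29a through miR-29c, miR-29b, miR-29a*, miR-29b-2* and miR-29c* (59.5 RPM) to miR-29b-1* (49.9 RPM). The ranges over libraries of the last 2 overlapped, and no other neighbours in this order did. Adapter ligation favours some ends over others, so levels of different miRNAs compare reads and not molecules.

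**Figure D1:**
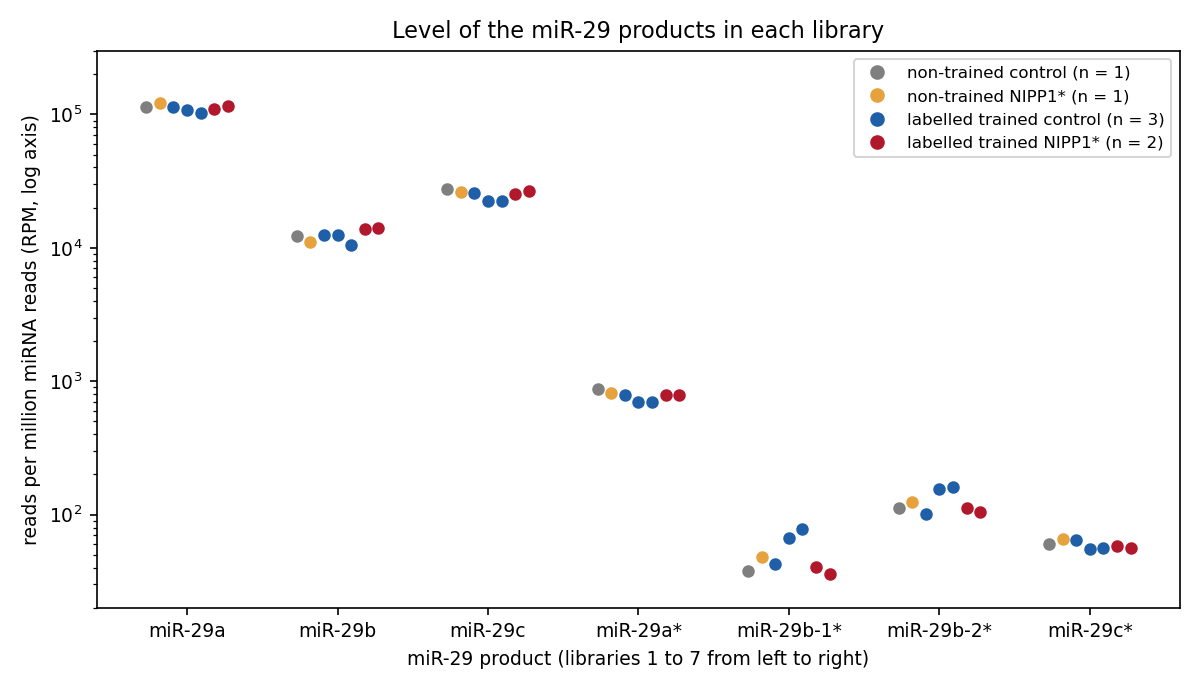
Level of each miR-29 product in each library in RPM on a log axis, with 1 point per library coloured by group as labelled. The guides lie above 10000 RPM and the * arms below 1000 RPM, and miR-29b-1* and miR-29b-2* are highest in libraries 4 and 5, in the middle of each set of points.

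The balance within the family does not depend on how libraries are scaled. miR-29a made up between 73.8% and 76.4% of the guide reads, miR-29c between 15.6% and 18.1% and miR-29b between 6.96% and 9.24%. Without training, the share of miR-29b was 8.07% in controls and 6.96% in NIPP1* mice (1 library each). In trained mice it was 8.20% ± 0.497 (SD, n = 3) in controls and 9.12% ± 0.165 (SD, n = 2) in NIPP1* mice. The NIPP1* libraries, at 9.24% and 9.01%, were above the controls, at 8.21%, 8.70% and 7.70%. By the labels the share was thus lower in NIPP1* mice without training and higher after it, and by the grouping of the deposited table it was lower in both.

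Guide and * reads of the Mir29b hairpins did not keep a fixed ratio. There were 82.3 reads of miR-29b for each read of its summed * arms in library 1 (control) and 63.6 in library 2 (NIPP1*), both non-trained. The ratio was 86.8, 56.0 and 43.6 in the trained controls and 89.5 and 100.1 in the trained NIPP1* libraries. Libraries 4 and 5 had the lowest ratios of the 7. Of the * reads, miR-29b-1* gave 25.1% and 27.7% in the non-trained control and NIPP1* libraries, 29.7%, 29.9% and 32.4% in the trained controls and 26.5% and 25.6% in the trained NIPP1* libraries.

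**Figure D2:**
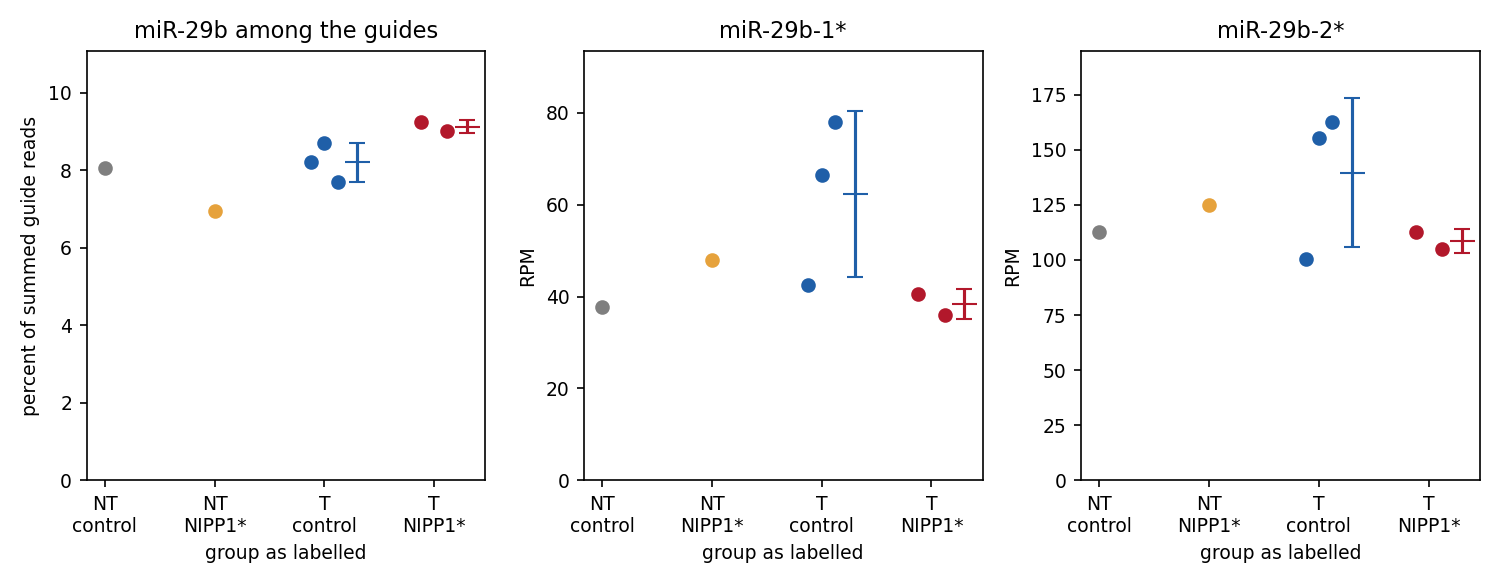
miR-29b as percent of the summed guide reads, and miR-29b-1* and miR-29b-2* in RPM, in groups as labelled (NT, non-trained; T, trained), with points for libraries and bars for the mean ± SD of the trained groups. The trained groups do not overlap in the share of miR-29b or in miR-29b-1*, and they overlap in miR-29b-2*.

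Spread within groups differed between the products. In the model of all 7 libraries, the residual SD on the log2 scale was 0.062 for miR-29a, which ranked 24 from the lowest of 476 miRNAs, and 0.086 for miR-29a*, 0.097 for miR-29c*, 0.11 for miR-29c and 0.12 for miR-29b. The median of all tested miRNAs was 0.20, and that of the 23 with a mean of at least 10000 RPM was 0.11. miR-29b-1*, at 0.37 and rank 398, and miR-29b-2*, at 0.31 and rank 360, were above the median of all. miR-29c* had a mean level close to that of miR-29b-1* and a residual SD well below it.

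**Figure D3:**
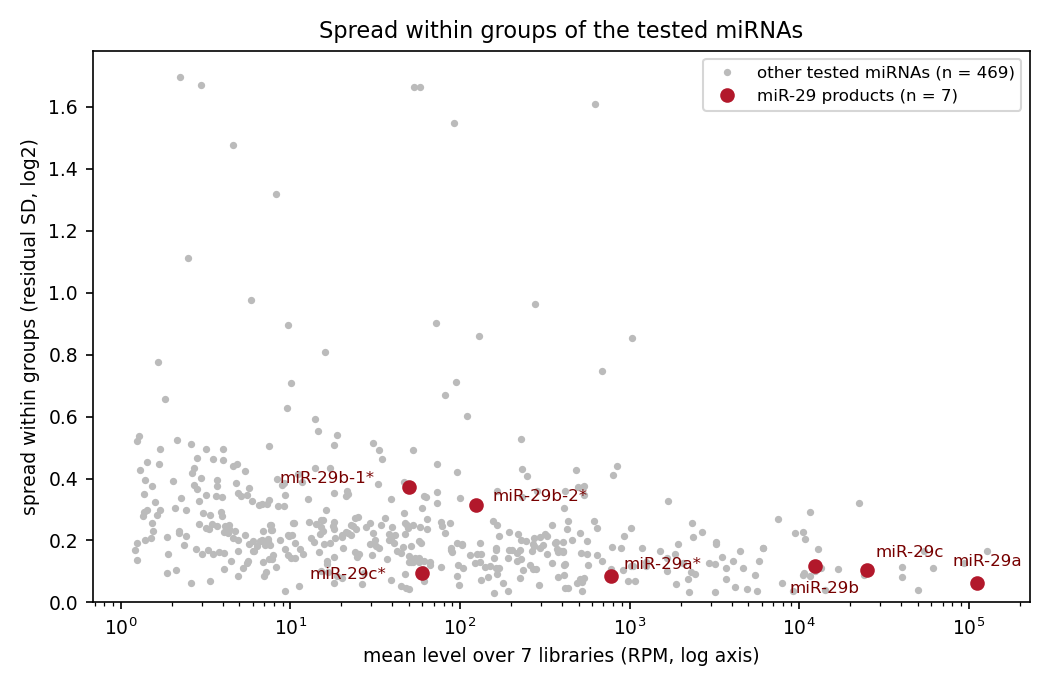
Residual SD within groups (log2) against mean level (RPM, log axis) for 476 tested miRNAs, with the 7 miR-29 products in red. The guides, miR-29a* and miR-29c* lie at 0.12 or below, while miR-29b-1* and miR-29b-2* lie above 0.3.

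Without training, NIPP1* and control were compared in 1 library each, with no replicate check and no p-value. None of the 7 products reached a log2 ratio of 1 in size, which 3 of 322 miRNAs did (0.932%). NIPP1* over control, the log2 ratio was 0.09 for miR-29a, -0.17 for miR-29b and -0.08 for miR-29c. For miR-29b the 95% interval by an exact conditional binomial method was -0.18 to -0.15, and it reflects the counting of reads alone. For the * arms the ratio was -0.10 for miR-29a*, 0.35 for miR-29b-1* with an interval of 0.13 to 0.56, 0.15 for miR-29b-2* and 0.12 for miR-29c*. The median size of the ratio was 0.12 over the 7 products and 0.15 over the 322 miRNAs.

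To examine the effect of training in controls, the 3 trained control libraries were compared with the non-trained one, which was assumed to vary as the trained groups do. limma on log2(RPM + 0.5) with Benjamini-Hochberg adjustment called 0 of the 7 products, and 0 of 476 miRNAs (0.0%). An unadjusted p under 0.05 was reached by 28 miRNAs (5.88%), none of them a miR-29 product. edgeR called 0 of 476 and DESeq2 called 1 (0.21%), not of the family. At an unadjusted p under 0.05, edgeR had 26 miRNAs (5.46%) with no product among them, and DESeq2 had 28 (5.88%), of which 1 was a product, miR-29b-1*. With groups as labelled, miR-29b-1* had the largest estimate of the family, a log2 fold change of 0.67 (SE 0.34, 95% CI -0.13 to 1.47, adjusted p = 0.666 by limma). Under the grouping of the deposited table it was 0.022, and the largest was that of miR-29b, at 0.17. That of miR-29c was -0.24 (SE 0.12, CI -0.53 to 0.052) and that of miR-29a* -0.27 (SE 0.16, CI -0.64 to 0.10). Under the other grouping these were -0.091 and -0.15, and with TMM factors and groups as labelled -0.15 and -0.18. The interval of miR-29a, -0.28 to 0.15, was narrower. Leaving out library 3, 4 or 5, the log2 fold change of miR-29b-1* was 0.92, 0.61 or 0.49, with an adjusted p of 0.0721, 0.908 or 0.877 by limma. That of miR-29b-2*, 0.28 with all libraries, was 0.50, 0.18 or 0.15, and -0.050 under the grouping of the deposited table. Relative to the total, 2 products were above 0 and 5 below, and with TMM factors 5 were above and 2 below.

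In NIPP1* mice, the 2 trained libraries were compared with the single non-trained one. limma called 0 of the 7 products and 0 of 476 miRNAs (0.0%). No miR-29 product was among the 21 miRNAs (4.41%) at an unadjusted p under 0.05. miR-29b had a log2 fold change of 0.34 (SE 0.14, CI -0.0050 to 0.68, adjusted p = 0.973 by limma), and 13715 and 14095 RPM against 10995 RPM. Under the grouping of the deposited table it was 0.094. As labelled, the other 6 were below 0, from -0.015 for miR-29c to -0.32 for miR-29b-1*, and under the other grouping miR-29b-1* was 0.33, miR-29b-2* 0.13 and miR-29c -0.17. edgeR and DESeq2 also called 0 products, and over all miRNAs 0 and 2 (0.42%). miR-29b was 1 of 22 miRNAs (4.62%) at an unadjusted p under 0.05 by edgeR and 1 of 20 (4.2%) by DESeq2.

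Between genotypes after training, limma called 0 of the 7 products and 0 of 476 miRNAs (0.0%). miR-29b-1* was 1 of 34 miRNAs (7.14%) at an unadjusted p under 0.05. Its level was 38.3 ± 3.25 RPM (SD, n = 2) in the libraries labelled NIPP1* and 62.3 ± 18.0 RPM (SD, n = 3) in controls. Its log2 fold change, NIPP1* minus control, was -0.65 (SE 0.27, CI -1.28 to -0.019, adjusted p = 0.639 by limma). Leaving out library 3, 4 or 5 it was -0.90, -0.58 or -0.47, with an adjusted p of 0.0840, 0.951 or 0.866 by limma. That of miR-29b-2*, -0.33 with all libraries, was -0.55, -0.23 or -0.20. miR-29b stood at 13905 ± 269 RPM (SD, n = 2) against 11775 ± 1130 RPM (SD, n = 3), a log2 fold change of 0.24 (SE 0.11, CI -0.012 to 0.50, adjusted p = 0.639 by limma), and 0.16 without library 5. miR-29a differed by 0.058 (CI -0.11 to 0.23). Leaving out library 3, 5, 6 or 7 gave 0.091, 0.025, 0.097 or 0.020. miR-29c differed by 0.15 (CI -0.081 to 0.38), and by 0.076 with TMM factors and 0.098 with DESeq2 size factors. Under the grouping of the deposited table these values change sign, so miR-29b would be lower and miR-29b-1* higher in trained NIPP1* mice. edgeR and DESeq2 called 0 products, and over all miRNAs 0 and 1 (0.21%). miR-29b-1* was 1 of 34 miRNAs (7.14%) at an unadjusted p under 0.05 by edgeR and 1 of 30 (6.3%) by DESeq2.

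The trained groups did not overlap for 1 product that was higher in the libraries labelled NIPP1*, miR-29b, and for 1 that was lower, miR-29b-1*. Over the tested miRNAs 18.7% were higher and 7.77% lower without overlap. With 2 of 7 products against 26.5% of all miRNAs in either direction, the family stood near the background.

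**Figure D4:**
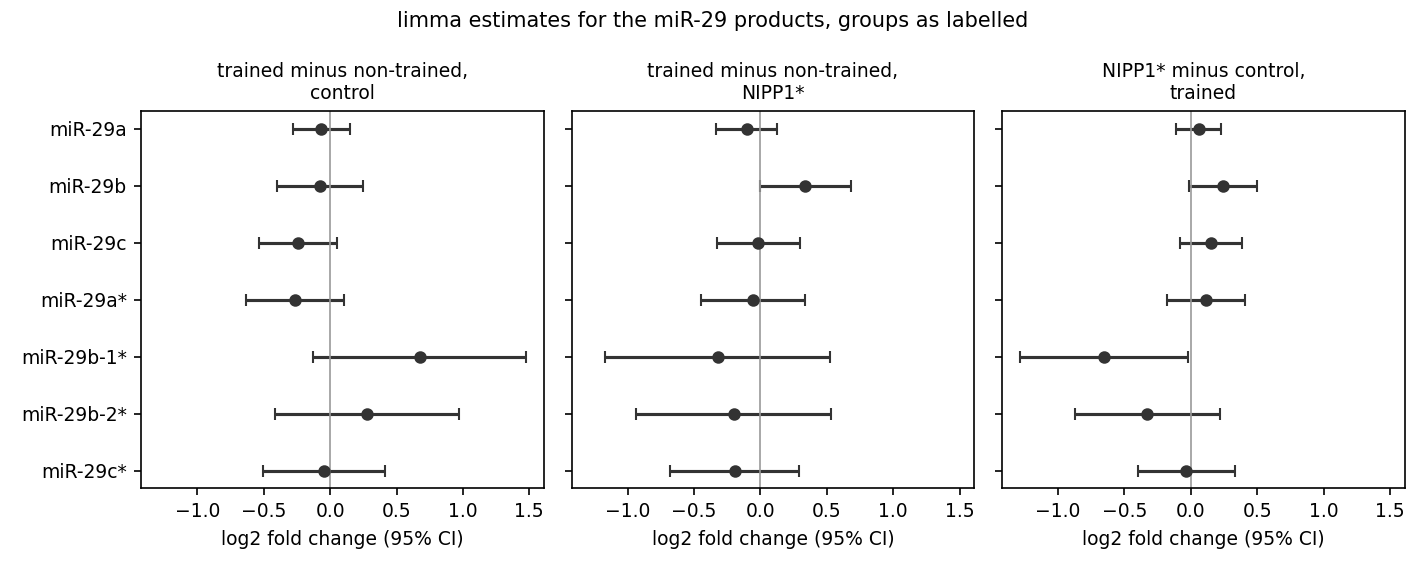
Log2 fold change of each miR-29 product with its 95% confidence interval by limma, for training in controls, training in NIPP1* mice and genotype after training, groups as labelled. All intervals include 0 except that of miR-29b-1* in the right panel, whose adjusted p was 0.639.

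Over both genotypes, trained against non-trained, limma called 0 of the 7 products and 0 of 476 miRNAs (0.0%). No miR-29 product was among the 16 miRNAs (3.36%) at an unadjusted p under 0.05. The estimates lay between -0.16 for miR-29a* and 0.18 for miR-29b-1*, which was 0.30 without library 3 and 0.085 without library 5. With TMM factors miR-29a* was -0.10 and miR-29b-1* 0.23, and by DESeq2 they were -0.092 and 0.27. The difference of the training effect, NIPP1* minus control, was also called for 0 products and for 0 of 476 miRNAs (0.0%), and no product was among the 37 (7.77%) at an unadjusted p under 0.05. The estimate was 0.41 (CI -0.060 to 0.88) for miR-29b and -0.995 (CI -2.16 to 0.17) for miR-29b-1*, both with an adjusted p of 0.696 by limma, and under the grouping of the deposited table -0.076 and 0.31. For both comparisons edgeR and DESeq2 called 0 products. Over all miRNAs edgeR called 0 in both, while DESeq2 called 1 (0.21%) for training over both genotypes and 2 (0.42%) for the difference. No product had an unadjusted p under 0.05 by either tool, which 18 and 37 miRNAs (3.78% and 7.77%) had by edgeR and 16 and 30 (3.36% and 6.3%) by DESeq2, in the same order. The comparisons share libraries and are not independent of each other.

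Over the 7 libraries the products fell into groups that rose and fell together, given here as descriptions over 7 points that share depth and a fixed total. Pearson's r of log2(RPM + 0.5) was 0.79 between miR-29a and miR-29c and 0.96 between miR-29c and miR-29a*, which come from different chromosomes. It was 0.95 between miR-29b-1* and miR-29b-2*, also from different chromosomes. Between miR-29b-1* and miR-29a*, which lie in 1 pair of hairpins, it was -0.86, and between miR-29b-2* and miR-29c, neighbours on chromosome 1, it was -0.87. Between miR-29c and miR-29b-1*, on different chromosomes, it was -0.93. Guide and * arm of the same hairpin had an r of 0.73 for miR-29a and 0.53 for miR-29c, so both signs occurred within and between chromosomes. miR-29b had an r of 0.20 with miR-29a and 0.41 with miR-29c.

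Among 312 other miRNAs that averaged 100 reads or more, the 5 whose level followed the summed guides most closely over the 7 libraries were miR-30a* (r = 0.995), miR-296-5p (0.976), miR-138 (0.958), miR-186 (0.941) and miR-488 (0.936). miR-138, a synaptic miRNA, was highest in library 7, at 7127 RPM, and lowest in library 5, at 4689 RPM, where the guides were also lowest. The lowest r was that of let-7b (-0.919), a member of the let-7 family, and that of miR-1981 (-0.908). let-7b stood at 28520 and 31920 RPM in libraries 4 and 5 and between 17020 and 21920 RPM in the others. Libraries 4 and 5 were thus the highest for let-7b, miR-29b-1* and miR-29b-2* and the lowest for miR-29a, miR-29c and miR-29a*. The part of these libraries in the results was not tested beyond leaving each out.

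miRNA markers of cell types were set beside the family. The 5 neuronal miRNAs, all detected, together took 196002 and 196650 RPM in libraries 4 and 5, where the miR-29 guides were also lowest, and 208742 to 227260 RPM in the others. Their part in the level of the guides was not tested. The list did not move as 1, since miR-9 was lowest in these libraries, at 115400 and 107500 RPM, while miR-128 was highest in library 5, at 71940 RPM. Of the astrocyte list beside miR-29, miR-449a stood between 5.99 RPM, in library 4, and 8.65 RPM. miR-143, the other on that list, stood at 12220 and 12880 RPM in libraries 4 and 5 and between 8707 and 11310 RPM in the others. miR-145, a smooth muscle miRNA made from the same cluster as miR-143 and counted with the vessels, was likewise highest in libraries 4 and 5, at 474.5 and 439.4 RPM against 300.8 to 424.6 RPM. miR-126-3p, an endothelial miRNA, was lowest there, at 4252 and 4300 RPM against 4580 to 5030 RPM, so the vessel list held miRNAs that went opposite ways in these libraries. The oligodendrocyte markers, 2 of 2 detected and mostly miR-338-3p, summed to 2766 to 3299 RPM in the trained controls, 4123 to 4375 RPM in the trained NIPP1* libraries, and 4808 and 3845 RPM in the non-trained control and NIPP1* libraries. Their order in the trained groups as labelled was that of miR-29b. Of the 476 tested miRNAs, 18.7% were higher without overlap in the libraries labelled trained NIPP1*, and lower under the grouping of the deposited table. The part of these markers in the level of miR-29b was not tested. The red cell miRNAs miR-451 and miR-144, both detected, had the same order in the trained groups. They summed to 61.9 to 126 RPM in the trained controls, lowest in libraries 4 and 5, to 132 to 251 RPM in the trained NIPP1* libraries, and to 116 and 85.0 RPM in the non-trained control and NIPP1* libraries. Their part in the level of miR-29b was not tested. Choroid plexus markers summed to 400 to 1154 RPM, with miR-211 at most 0.27 RPM, epithelial miR-200 family markers to 112 to 356 RPM, leukocyte and microglial markers to 1151 to 1645 RPM and vessel markers to 5454 to 6370 RPM.

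Other miRNAs known to target DNA methyltransferase messengers, which the miR-29 guides also target, were counted as a list of 6, namely miR-148a, miR-148b, miR-152, miR-101a, miR-101b and miR-143. limma, edgeR and DESeq2 called 0 of 6 in either direction in each of the 5 tested comparisons. At an unadjusted p under 0.05 by limma there were 2 of 6 between the trained genotypes, against 7.14% of all tested miRNAs, and 2 of 6 for the difference of the training effects, against 7.77%. There was 1 of 6 for training in controls (5.88% of all), 1 of 6 for training in NIPP1* mice (4.41%) and 0 of 6 over both genotypes (3.36%). In the order trained genotypes, difference, controls, NIPP1* mice and both genotypes, edgeR had 0, 2, 0, 1 and 1 of 6 and DESeq2 1, 1, 0, 1 and 1 of 6, so the tools differed in these counts. After training, 5 of 6 were above 0 in NIPP1* against control, as were 56.3% of all tested miRNAs. Their median log2 fold change was 0.27, against 0.037 over all and 0.058 over the 7 miR-29 products. In controls, 5 of 6 were below 0 for training, as were 59.5% of all, with a median of -0.34 against -0.090 over all and -0.065 over the miR-29 products. In NIPP1* mice, 6 of 6 were above 0 for training, as were 43.9% of all, with a median of 0.18 against -0.027 over all and -0.10 over the miR-29 products. miR-101a, the most abundant, stood at 11270, 9839 and 10480 RPM in the trained controls and at 12810 and 12140 RPM in the trained NIPP1* libraries. In the non-trained control and NIPP1* libraries it stood at 13010 and 10980 RPM. The directions and medians of the list follow the labels, and those for training in each genotype rest on that assignment. The list was not counted under the grouping of the deposited table.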

How the data were processed

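Small RNA of pooled mouse hippocampus was sequenced in 7 libraries. The authors trimmed adapters, kept inserts of 19 to 26 nt and mapped them with bowtie in the ncPRO-seq pipeline to NCBI37/mm9. Demultiplexing used CASAVA 1.7.0 per the labels. The deposited values are a percent of the miRNA reads of a library at each mature locus. The deposited comparison tables hold, as signal, means of reads over size factors for each group, beside the authors' fold changes and p-values, which were not used. In the tables, 2 columns of per-library values were not used.

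Percentages were multiplied to RPM and loci of 1 mature sequence averaged. Of 756 sequences, 624 were joined to a name of the tables, 554 by hairpin and reads and 70 by reads alone. The 132 not joined reached at most 46.3 RPM. Low values step by the worth of 1 read, which gave back whole reads (100% of low values within 0.15 reads). limma with a trend was fitted to log2(RPM + 0.5) in 1 model of the 4 groups over 476 miRNAs that averaged 10 or more reads per library, and a miRNA was called at an adjusted p under 0.05. On this scale folds of low miRNAs are understated. The fit was tested on simulated data with a log2 change of 2 in 200 of 476 miRNAs. The most abundant miRNAs, the guides among them, were left unchanged. Between 75% (difference of the training effects) and 98% of the changed miRNAs were recovered, and between 3.23% and 6.22% of calls were false. Smaller changes and changes in the guides were not covered. The members and lists were chosen with earlier results of these data known. All members were named, with the 5 miRNAs most like and 2 least like the summed guides, the 2 most abundant others and up to 4 of each list. miR-92b* was named after its sequence was seen, and miR-26a, miR-9* and let-7i after their values were. Alternatives covered pseudocounts, filters, TMM, DESeq2 size factors, edgeR and DESeq2 on recovered reads, the total without miR-29 reads, models of the groups compared, each trained library left out, and the grouping of the deposited table. The binomial intervals of the non-trained ratios state counting error and nothing else, while the limma intervals rest on the spread between libraries. Reads were amplified without molecular identifiers, which the binomial intervals do not take into account. Fits ran in R 4.3.3 (limma 3.58.1, DESeq2 1.42.0, edgeR 4.0.16) and other steps in Python 3.11.15 with scipy 1.17.1 and pandas 2.3.3.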

Additional observations from a re-analysis of the deposited data

Results flagged for a closer look

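The training effect on miR-29b-1* went in opposite directions in the genotypes as labelled. All 3 trained control libraries, at 42.6, 66.5 and 77.9 RPM, were above the non-trained control at 37.7 RPM, and both trained NIPP1* libraries, at 40.6 and 36.0 RPM, were below the non-trained NIPP1* library at 47.9 RPM. The difference of the effects, NIPP1* minus control, was -0.995 on the log2 scale (SE 0.49, adjusted p = 0.696 by limma), which did not pass the test. Movement in opposite directions in the genotypes, whichever of them rose, was seen in 104 of 476 tested miRNAs (21.8%). Under the grouping of the deposited table the difference was 0.31. Leaving out library 3, 4 or 5 it was -1.25, -0.93 or -0.81, and without library 6 or 7 it was -1.08 or -0.91. No outlier test was run on groups of 3 libraries or fewer.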

How the results depend on the processing

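The 7 products were called 0 times in each of the 5 tested comparisons under every alternative run, and 0 passed a log2 ratio of 1 between the non-trained libraries. Of 567 values of single products under alternatives, 524 kept their direction and call, 40 reversed and 3 moved by more than their interval. The estimates in the report that reversed had intervals that include 0, except that of miR-29b-1* between the trained genotypes. For training in controls, TMM factors, DESeq2 size factors, edgeR and DESeq2 gave 0.025, 0.024, 0.026 and 0.029 for miR-29a, 0.017, 0.015, 0.021 and 0.023 for miR-29b, and 0.045, 0.044, 0.048 and 0.052 for miR-29c*. For training in NIPP1* mice they gave 0.0073, 0.0265, 0.0082 and 0.025 for miR-29c. Between the trained genotypes, miR-29a was -0.016 with TMM factors and -0.016 with edgeR. With the grouping of the deposited table, training in controls was 0.17 for miR-29b and -0.050 for miR-29b-2*, and training in NIPP1* mice 0.33 for miR-29b-1* and 0.13 for miR-29b-2*. The trained genotypes then differed by -0.058 (miR-29a), -0.24 (miR-29b), -0.15 (miR-29c), -0.11 (miR-29a*), 0.65 (miR-29b-1*), 0.33 (miR-29b-2*) and 0.033 (miR-29c*), and the difference of the training effects was -0.076 (miR-29b), -0.074 (miR-29c), -0.0135 (miR-29a*), 0.31 (miR-29b-1*) and 0.18 (miR-29b-2*). Swapping the trained groups reverses the genotype contrast by construction. For training in controls, the median over all tested miRNAs was -0.090 relative to the total and -0.0024 with TMM factors. The cause of the other reversals was not tested. Leaving out 1 library gave -0.12 to 0.0084 for miR-29b in trained controls, -0.062 to 0.032 for miR-29c in trained NIPP1* mice, -0.075 to 0.033 for miR-29c* between trained genotypes, -0.024 to 0.15 for miR-29b-2* over both genotypes and -0.075 to 0.0019 for the difference of effects in miR-29a.

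The log2 ratio of the summed guides for training in controls was -0.0046 with TMM factors, -0.0061 with DESeq2 size factors and -0.0059 with the grouping of the deposited table. With that grouping, added after the data were seen, it was -0.14 for training in NIPP1* mice and -0.089 between the trained genotypes. The lowest adjusted p of any product over all alternatives lay between 0.0721 and 0.994 for training in controls, 0.568 and 1.0 for training in NIPP1* mice, 0.0840 and 0.994 between the trained genotypes, 0.323 and 0.998 over both genotypes and 0.121 and 0.997 for the difference of effects. The lowest value of each of the 5 comparisons came without library 3. For training in NIPP1* mice, where library 3 enters only the pooled spread, the estimate of miR-29b stayed at 0.34. No paired analysis was possible because the labels carry no replicate numbers. The non-trained groups have 1 library each, so their spread was not measured.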
